A study of Capra hircus with 29 samples.

Results

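The Notch pathway genes described here were the ligand JAG1, the receptor NOTCH2, the glycosyltransferase POFUT1, the protease ADAM10, the gamma-secretase subunits PSEN2 and NCSTN, the inhibitor NUMB, the DNA-binding factor RBPJ and the target gene HES1. They were chosen by gene symbol, and each of the 9 symbols was held by 1 of the 21343 genes in the table of oocyte expression. In Notch signalling a ligand on 1 cell binds a receptor on its neighbour, and 2 cleavages, by an ADAM protease and then by gamma-secretase, release the intracellular part of the receptor. That part enters the nucleus, joins RBPJ and its coactivators at target genes, and HES1, itself a transcriptional repressor, is among the best known of these. In the ovary, oocytes are known to carry JAG1 and the surrounding granulosa cells NOTCH2, so that the oocyte is seen mainly as the sender of the signal.

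RNA-seq was performed on oocytes of Ji'ning grey goats from a high fertility population (more than 3 kids per birth in the labels) and a low fertility population (fewer than 2), while the methods give both bounds as inclusive. Oocytes were taken from large, medium and small follicles, which gave high fertility large (HLO, n = 5), low fertility large (LLO, n = 5), high fertility medium (HMO, n = 5), low fertility medium (LMO, n = 5), high fertility small (HSO, n = 4) and low fertility small (LSO, n = 5). The methods describe that oocytes of a follicle size were pooled over goats, as written for the high fertility population, and then divided into samples of a few oocytes for both, and the labels name no treatment, age or individual goat. By that description the samples of a group are portions of a common pool, and p-values measure the spread between portions, not between goats. In these bulk samples, less RNA per oocyte and fewer oocytes expressing a gene cannot be told apart.

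Values were FPKM, fragments per kilobase of transcript scaled to the mapped fragments of the sample, so levels of different genes are compared per length. Of 11 oocyte markers, 9 were above 0.5 FPKM in all 29 samples, and GDF9 and ZP3 reached at least 31.9 and 57.5 FPKM in every one. Of 11 granulosa markers, 5 never passed 0.5 FPKM, among them FSHR, CYP19A1 and AMH, and INHBA, GJA1 and FST reached 5.21, 4.23 and 1.54 FPKM. STAR, a cholesterol carrier of steroid-producing cells, was above 0.5 FPKM in every sample, at 4.32 to 39.0 FPKM. Of 5 stroma markers, DCN, ACTA2 and COL1A2 ranged from 1.95 to 16.7, 0.361 to 27.5 and 0.235 to 4.29 FPKM, while COL1A1 and PDGFRA were at most 0.0391 and 0.0373 FPKM. The sum of FPKM over all genes was lowest in LMO-2 (222697, against up to 490048 elsewhere), and the share of genes listed at 0 was highest in LLO-2 (51.5%).

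Mean levels of the 9 genes ran from 0.122 FPKM (POFUT1) to 60.7 FPKM (HES1). HES1 was the most abundant with 60.7 ± 48.5 FPKM (SD, n = 29), which lay above 96.1% of all genes. RBPJ followed with 24.8 ± 16.1, JAG1 with 22.3 ± 9.88 and NUMB with 16.4 ± 3.08 FPKM. NCSTN reached 3.15 ± 1.53 and ADAM10 1.03 ± 0.563 FPKM. PSEN2 and NOTCH2 were near the 0.5 FPKM used as the limit for low values, with 0.483 ± 0.409 and 0.462 ± 0.269 FPKM. POFUT1 never passed that limit: it was listed at 0 in 8 samples and its highest value was 0.331 FPKM. NUMB varied least among them, with a coefficient of variation of 18.8%. Ordered by mean, the 6 groups formed 5 neighbouring pairs for each gene, and the samples of all 5 pairs overlapped for each of the 9 genes. Neighbours in such an order have close means by construction, so their overlap does not decide whether groups differ. It was not counted over all genes.

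**Figure D1:**
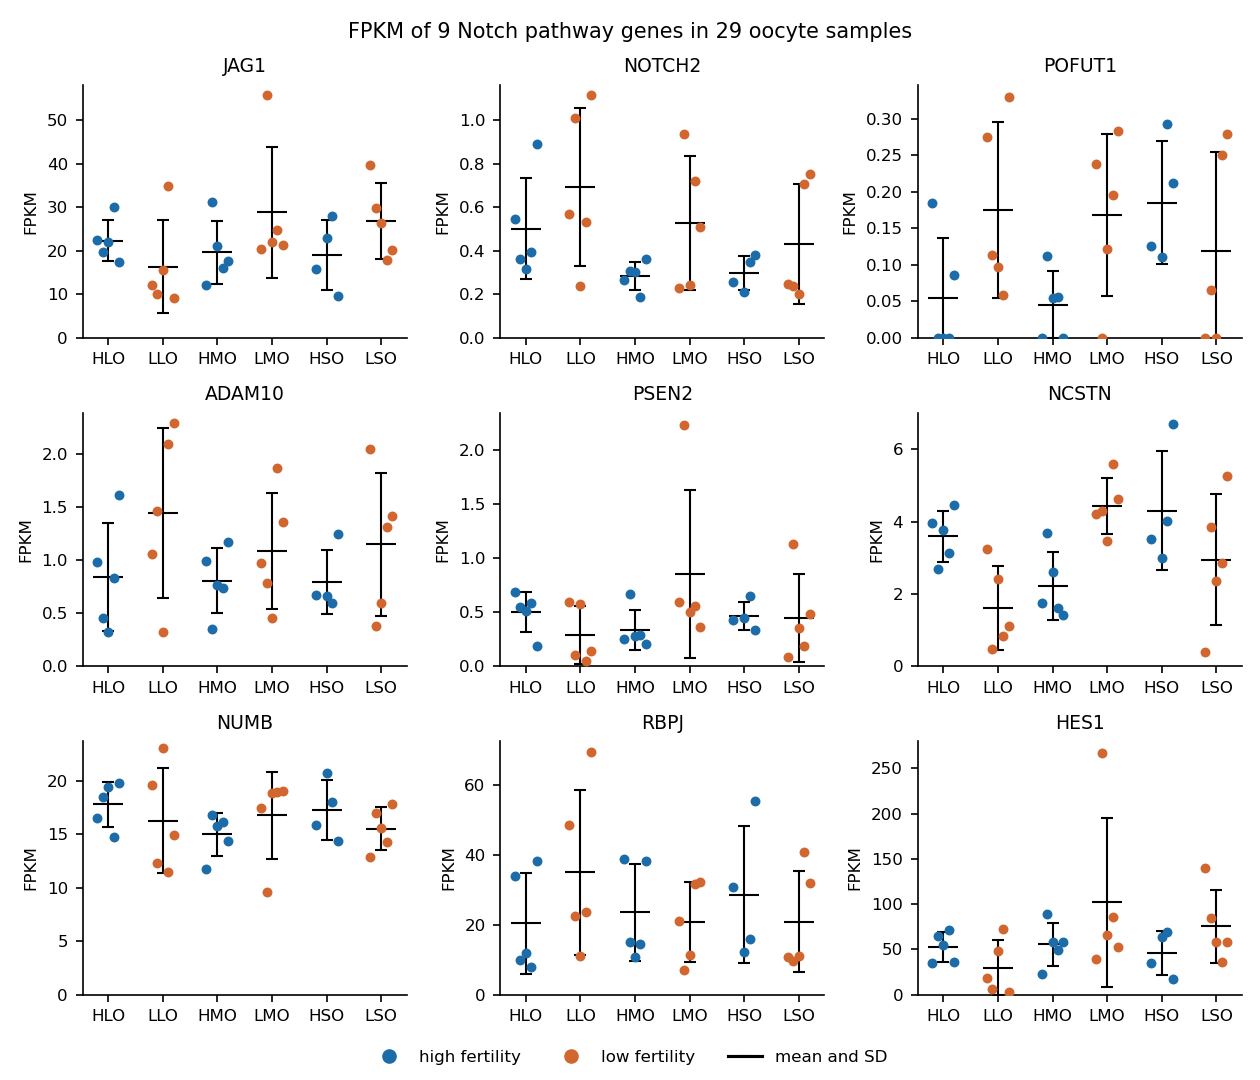
FPKM of each gene (vertical axis, linear, own scale per panel) in the 6 groups (horizontal axis: H or L for high or low fertility, L, M or S for large, medium or small follicles), with 1 point per sample, n = 5 per group and 4 in HSO. Black bars give the mean and SD and are cut at 0. NCSTN lay at 2.68 to 4.46 FPKM in HLO and 3.46 to 5.59 in LMO, against 0.487 to 3.25 in LLO and 1.41 to 3.69 in HMO. HES1 reached 267 FPKM in LMO-2 and 3.07 in LLO-5.

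Of the 60 other Notch pathway genes listed for comparison, 16 were above 0.5 FPKM in all 29 samples, 26 never were, and 9 of these 26 were listed at 0 throughout. JAG1 was the ligand with the highest level in 29 of 29 samples: JAG2 was at most 2.65 and DLL3 at most 2.21 FPKM, DLL1 at most 0.117, and DLL4 was listed at 0. NOTCH2 was the highest of the receptors in 29 of 29 samples, although JAG1 exceeded it by a median of 61.8-fold, and NOTCH1, NOTCH3 and NOTCH4 were at most 0.0449, 0.137 and 0.0300 FPKM. ADAM17, the other protease of the first cleavage, exceeded ADAM10 in 29 of 29 samples with a median ratio of 11.3. EOGT, another glycosyltransferase of the receptor, exceeded POFUT1 in 29 of 29, whereas NUMB exceeded its relative NUMBL in 29 of 29.

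Of the gamma-secretase subunits, APH1B (14.2 FPKM on average) exceeded APH1A (0.486) in 29 of 29 samples, and PSENEN had 3.62 FPKM on average, close to the 3.15 of NCSTN. Among target genes HES1 exceeded HEY1 in 27 of 29 samples, with a median ratio of 4.91, and exceeded HES7 in 29 of 29. HES2, HES4, HES5, HES6 and NRARP were listed at 0. The coactivators of the MAML family, which bind RBPJ and the receptor fragment, were at most 0.228 FPKM for MAML1, 0.0353 for MAML2 and 1.06 for MAML3. SNW1 (53.2 FPKM on average) and CIR1 (56.9), which bind RBPJ as a coactivator and a corepressor, were the most abundant of the 60. Others above 0.5 FPKM in every sample were FBXW7, ITCH, NCOR1, TLE4, HDAC1, HDAC2, EP300, CREBBP and HEY2, with means from 1.58 (HEY2) to 27.7 FPKM (FBXW7).

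**Figure D2:**
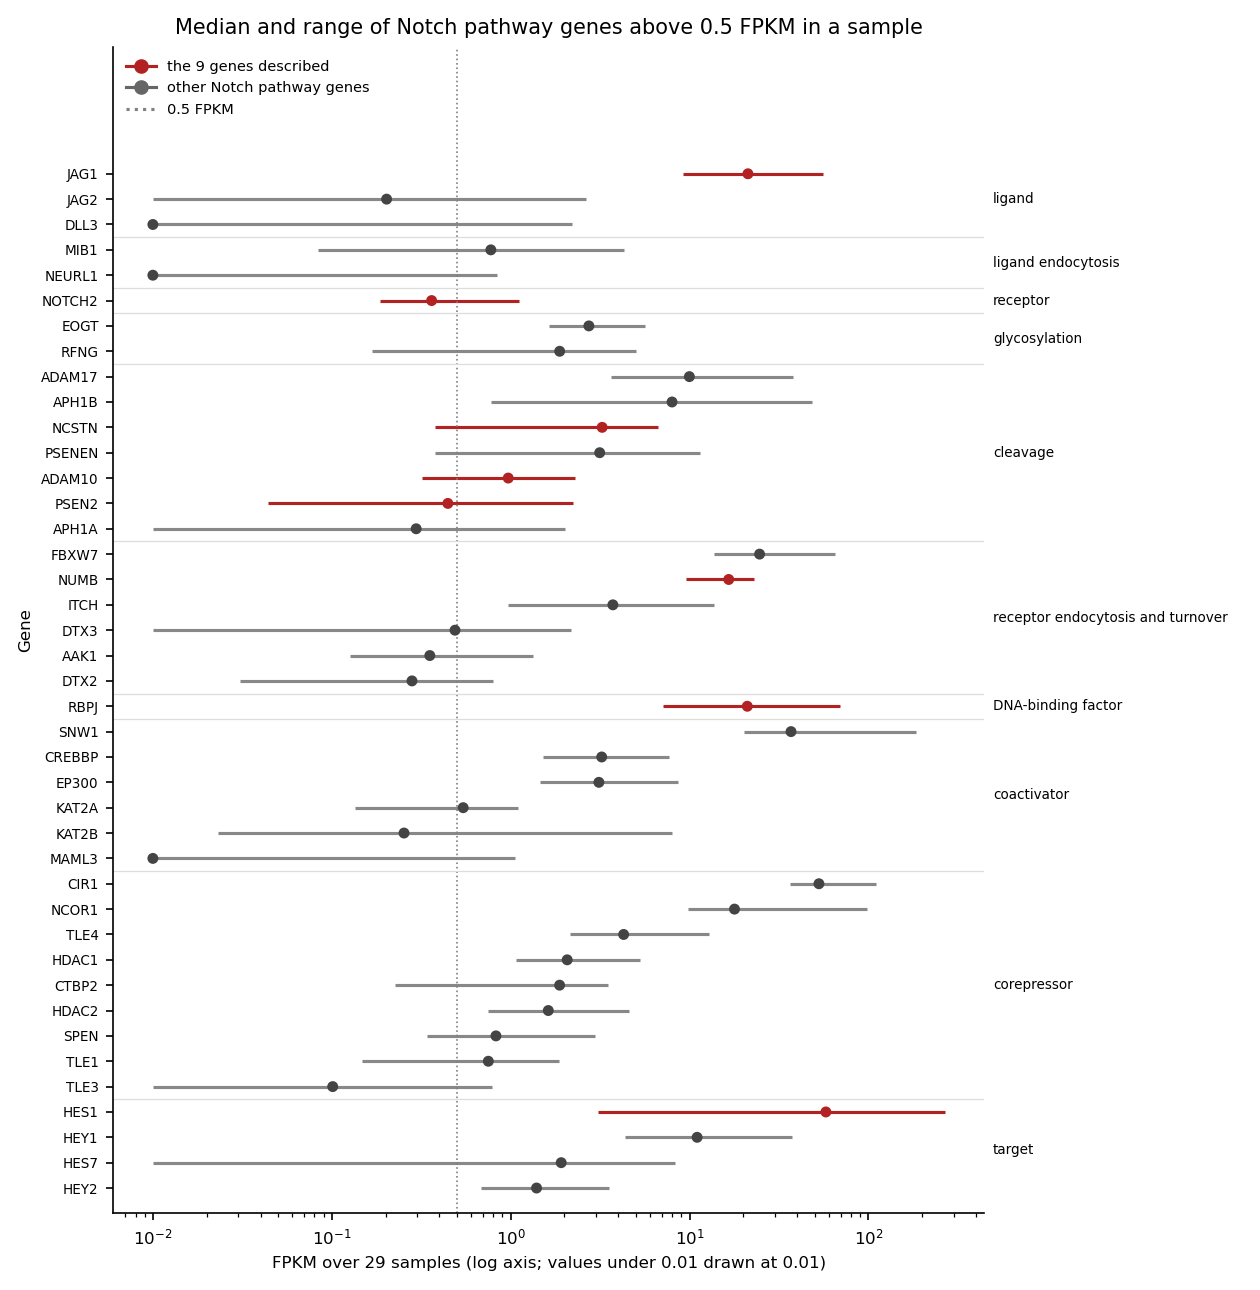
Median (point) and range (line) over 29 samples of Notch pathway genes that passed 0.5 FPKM (dotted line) in at least 1 sample, grouped by role, on a log axis of FPKM on which values under 0.01 are drawn at 0.01. The genes described here are in red. JAG1, with 22.3 FPKM on average, stood above JAG2 and DLL3, while ADAM17 stood above ADAM10. POFUT1 never passed 0.5 FPKM and is not drawn.

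Whether these genes differed between the high and low fertility populations was asked within each follicle size. Genes entered a comparison when 4 or more of its samples exceeded 0.5 FPKM, and limma was run on log2(FPKM + 1). A positive value means higher in high fertility. The 3 comparisons share no samples. No gene of the 9 passed a Benjamini-Hochberg adjusted p of 0.05 in any of them. In large follicles 8 of the 9 could be tested, and 1 had an unadjusted p under 0.05, where 4.14% of the 8328 genes tested had one. In medium follicles 7 could be tested (not NOTCH2 or POFUT1), and again 1 had an unadjusted p under 0.05, against 8.67% of 8390 genes. In small follicles 6 could be tested (not NOTCH2, PSEN2 or POFUT1), and 0 of them did, against 4.41% of 8376 genes. Of all genes tested, 0 in large, 6 in medium (0.0715%) and 1 in small follicles (0.0119%) passed the adjusted threshold. The median difference of the tested members was 0.20 in large, -0.40 in medium and -0.04 in small follicles, beside -0.09, -0.07 and -0.01 over all genes tested.

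The member with an unadjusted p under 0.05 was NCSTN both times, in opposite directions. NCSTN encodes nicastrin, the gamma-secretase subunit that binds the substrate. In HLO-1 to HLO-5 its level was 3.96, 2.68, 3.76, 3.12 and 4.46 FPKM, and in LLO-1 to LLO-5 it was 3.25, 0.487, 2.42, 0.826 and 1.11 FPKM. LLO-1 lay within the HLO range and the other 4 LLO samples lay below it. The difference of log2 values was 0.91 (SE 0.351, adjusted p = 0.828) with an unadjusted p of 0.0216 and an exact permutation p of 0.0238, and 2.98% of all genes tested were higher in HLO at this unadjusted threshold. Without LLO-2 it was 0.74 with an unadjusted p of 0.059.

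In medium follicles the order was turned. HMO-1 to HMO-5 had 1.76, 3.69, 2.61, 1.6 and 1.41 FPKM of NCSTN, and LMO-1 to LMO-5 had 4.22, 4.30, 3.46, 5.59 and 4.62 FPKM. All but HMO-2 lay below all of LMO. The difference was -0.79 (SE 0.260, adjusted p = 0.352) with an unadjusted p of 0.00951 and an exact permutation p of 0.0159, and 3.58% of genes tested were lower in HMO at this threshold. Only the fit with sample weights took it past the adjusted threshold, with -0.93 and an adjusted p of 0.0223, and that fit called 1011 of 8390 genes against 6 without weights.

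In small follicles HSO-1, HSO-3, HSO-4 and HSO-5 had 3.52, 2.99, 4.01 and 6.69 FPKM of NCSTN, and LSO-1 to LSO-5 had 0.380, 3.85, 2.36, 2.86 and 5.27 FPKM. The groups overlapped, with LSO-1 far below the rest. The difference was 0.54 (SE 0.427, exact permutation p = 0.294), and 0.20 without LSO-1. The change of the fertility difference with follicle size, tested as an interaction over all 29 samples, had an unadjusted p of 0.00259 for NCSTN and an adjusted p of 0.256. In this test 2 of 8 members, NCSTN and HES1, had an unadjusted p under 0.05, where 7.89% of 9692 genes did, and 0 members and 0 of 9692 genes passed the adjusted threshold. With sample weights the adjusted p for NCSTN was 0.0228.

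The summed level of 11 granulosa markers was higher in HLO than in LLO and lower in HMO than in LMO, as were the NCSTN means. In small follicles the sums overlapped. No correlation of the sum with NCSTN was computed, and genes that separate these groups were not counted over the table. The sum was 18.8 to 31.3 FPKM in HLO and 9.01 to 18.3 in LLO, 10.04 to 16.6 in HMO and 21.4 to 39.8 in LMO, and 13.7 to 28.0 in HSO and 6.08 to 35.8 in LSO. STAR made up most of it, with 17.6 to 30.01 FPKM in HLO, 5.11 to 17.3 in LLO, 8.54 to 15.6 in HMO and 19.8 to 39.0 in LMO. The sum of the other 10 overlapped between the populations, at 1.21 to 4.31 FPKM in HLO and 0.805 to 3.89 in LLO, and at 0.998 to 2.32 in HMO and 0.786 to 8.63 in LMO. AMH was listed at 0 in all 29 samples, LHCGR in 27, INHA in 20 and FSHR in 17, while INHBA was above 0 in all 29 and GJA1 above 0.5 FPKM in 19. Their part in the NCSTN difference was not tested.

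**Figure D3:**
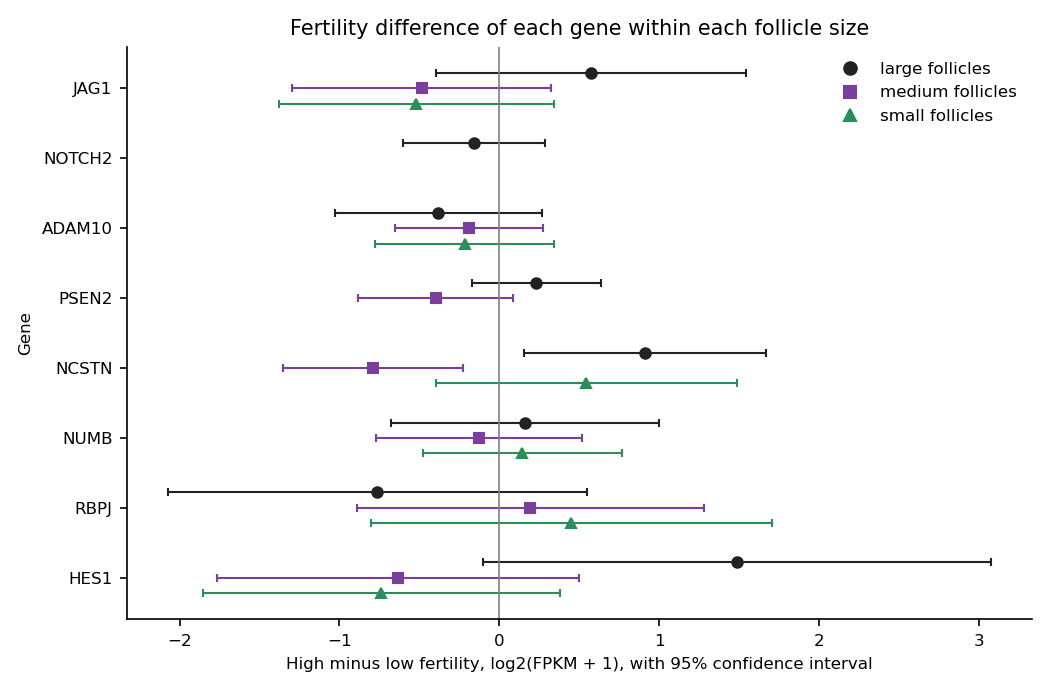
High minus low fertility difference of log2(FPKM + 1) (horizontal axis) for the 8 members tested (vertical axis) in large, medium and small follicles, with 95% confidence intervals from limma. NCSTN in large (0.91) and in medium follicles (-0.79) are the intervals that exclude 0. NOTCH2 was tested in large and PSEN2 in large and medium follicles.

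On the log2(FPKM + 1) scale HES1 had the largest difference of the members tested in large follicles. Its levels in HLO-1 to HLO-5 were 35.0, 65.3, 54.8, 70.9 and 36.2 FPKM, and in LLO-1 to LLO-5 they were 18.5, 6.11, 48.3, 73.0 and 3.07 FPKM. LLO-2 and LLO-5 were the lowest of all 29 samples, while LLO-4 lay above every HLO sample. The difference in large follicles was 1.49 (SE 0.737, exact permutation p = 0.127, adjusted p = 0.828). Without LLO-5 it was 0.94, and without LLO-4 it was 1.99 with an unadjusted p of 0.0131.

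In medium follicles HMO-1 to HMO-5 had 22.6, 88.7, 58.0, 49.6 and 58.3 FPKM of HES1, and LMO-1 to LMO-5 had 39.8, 267, 65.6, 85.3 and 52.8 FPKM. In small follicles HSO-1, HSO-3, HSO-4 and HSO-5 had 35.1, 63.8, 68.9 and 16.8 FPKM, and LSO-1 to LSO-5 had 140, 84.9, 57.9, 36.0 and 57.9 FPKM. The groups overlapped at both sizes, and LMO-2 was the highest of all samples. The differences were -0.63 (SE 0.521, exact permutation p = 0.333) and -0.74 (SE 0.508, exact permutation p = 0.23), and they were -0.20 without LMO-2 and -0.33 without HSO-5. The interaction with follicle size had an unadjusted p of 0.0324 (adjusted p = 0.565). It was 0.0549 with median-of-ratios factors, 0.0622 with quantile normalization, and 0.101, 0.0843, 0.0604 and 0.057 without LLO-5, LLO-2, HLO-4 and HLO-2, in that order.

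The ligand JAG1 was measured at 22.6, 19.7, 21.9, 30.1 and 17.5 FPKM in HLO-1 to HLO-5 and at 12.1, 10.1, 15.6, 34.8 and 9.24 FPKM in LLO-1 to LLO-5. In HMO-1 to HMO-5 it was at 12.0, 31.2, 21.2, 16.0 and 17.7 FPKM, and in LMO-1 to LMO-5 at 20.3, 55.7, 22.0, 24.8 and 21.2 FPKM. In HSO-1, HSO-3, HSO-4 and HSO-5 it was at 15.7, 22.9, 27.9 and 9.55 FPKM, and in LSO-1 to LSO-5 at 39.8, 29.8, 26.5, 17.9 and 20.1 FPKM. As for HES1, LLO-5 was the lowest and LMO-2 the highest sample, and high and low fertility overlapped at each size. The differences were 0.57 (SE 0.450) in large, -0.49 (SE 0.375) in medium and -0.52 (SE 0.391) in small follicles, with exact permutation p of 0.135, 0.206 and 0.206. They were 0.87 without LLO-4, -0.23 without LMO-2 and -0.24 without HSO-5.

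The differences of the other members are on the same log2(FPKM + 1) scale. It shrinks the differences of genes near or under 1 FPKM, so their sizes do not rank such genes against abundant ones. NOTCH2 ranged from 0.318 to 0.889 FPKM in HLO and from 0.237 to 1.12 in LLO, with a difference of -0.16 (SE 0.207, exact permutation p = 0.365). Its highest value was 0.362 in HMO and 0.936 in LMO, and 0.382 in HSO and 0.755 in LSO. ADAM10 was lower on average in high fertility at each size, with mean levels of 0.839 and 1.45 FPKM in HLO and LLO, 0.804 and 1.09 in HMO and LMO, and 0.794 and 1.15 in HSO and LSO, but its differences of -0.38, -0.19 and -0.22 had exact permutation p of 0.23, 0.397 and 0.429. PSEN2 had differences of 0.23 in large and -0.40 in medium follicles, with exact permutation p of 0.159 and 0.0794. NUMB, an endocytic adaptor that antagonises the receptor, had differences between -0.12 and 0.16 with exact permutation p from 0.31 to 0.563. RBPJ had differences of -0.76, 0.19 and 0.45 with standard errors from 0.501 to 0.608, and they were -0.45 without LLO-5, -0.11 without LMO-2 and 0.06 without HSO-5. POFUT1, which adds fucose to the receptor and is needed for ligand binding, was below the limit for testing, with means of 0.0541 and 0.175 FPKM in HLO and LLO, 0.0446 and 0.168 in HMO and LMO, and 0.185 and 0.119 in HSO and LSO.

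Over all stages, with follicle size as a covariate, 0 of 8 members had an unadjusted p under 0.05, against 9.99% of 9692 genes, and 0 members and 1 of the 9692 genes (0.0103%) passed the adjusted threshold. NOTCH2 (-0.17, SE 0.0902, adjusted p = 0.529) and ADAM10 (-0.26, SE 0.144, adjusted p = 0.542) came nearest, both with a lower mean in high fertility. The fit with sample weights gave them adjusted p of 0.0443 and 0.0415, and it called 691 genes in all. Follicle size, with population as a covariate, gave 0 of 8 members an unadjusted p under 0.05, against 1.66% of genes, and 0 of 9692 genes passed the adjusted threshold. The smallest p was that of HES1, 0.0844.

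Of the other 60 pathway genes, 31 could be tested over all stages. Of these 6 had an unadjusted p under 0.05, all lower in high fertility, where 6.59% of all genes tested were lower at this threshold, and 0 passed the adjusted one. They were the acetyltransferase coactivators EP300 (-0.58, SE 0.204) and CREBBP (-0.47, SE 0.188), the corepressors NCOR1 (-0.70, SE 0.263), SPEN (-0.41, SE 0.137) and TLE4 (-0.48, SE 0.182), and the target HEY1 (-0.52, SE 0.201), with unadjusted p from 0.00558 to 0.0174 and adjusted p from 0.423 to 0.437. EP300 had a mean of 2.72, 2.50 and 2.62 FPKM in HLO, HMO and HSO, and of 5.21, 4.40 and 4.75 FPKM in LLO, LMO and LSO. HEY1 had 10.3, 10.4 and 8.50 FPKM in the former and 19.2, 12.2 and 13.7 FPKM in the latter. The median difference of the 31 was -0.16, beside -0.04 over all genes. The count of 6 was 5 with median-of-ratios factors, 6 with quantile normalization and 6 to 9 without each sample in turn. Of all genes tested, 4.28%, 6.79% and 4.88% to 9.16% were lower in these fits, in that order. The count was 9 without LLO-3 or LSO-2, where 9.16% and 7.64% were lower. With sample weights 11 of the 31 were lower and 6 passed the adjusted threshold, in a fit that called 28.7% of all genes lower at the unadjusted one.

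Within sizes, 0 of 25 of these genes had an unadjusted p under 0.05 in large, 2 of 26 in medium and 3 of 26 in small follicles, against 4.14%, 8.67% and 4.41% of all genes tested, and 0 passed the adjusted threshold. In medium follicles they were the acetyltransferase KAT2B, with a higher mean in HMO (1.18, SE 0.329, adjusted p = 0.224), and TLE4, with a lower one (-0.64, SE 0.292, adjusted p = 0.571). This count of 2 was 0 without HMO-1, HMO-3 or HMO-4, where 4.82% to 5.82% of all genes tested had an unadjusted p under 0.05. It was 1 without HMO-5, LMO-2, LMO-4 or LMO-5, where 6.46% to 7.6% did. It was 3 without HMO-2 or LMO-3, where 12.6% and 11.6% did. Without HMO-2 there was 1 adjusted call, in a fit that called 160 of 8280 genes. With sample weights 12 of the 26 were lower, 1 was higher and 4 passed the adjusted threshold, where 31.9% of all genes were lower at the unadjusted one. In small follicles NCOR1 (-0.69), EP300 (-0.66) and HEY2 (-0.58) had lower means in HSO, where 2.36% of genes tested were lower at this threshold, with unadjusted p from 0.0369 to 0.0459 and an adjusted p of 0.88 each. The count of 3 was 0 with median-of-ratios factors or quantile normalization, where 1.98% and 2.22% of all genes tested were lower. It was 0 without HSO-3, HSO-5, LSO-1, LSO-3 or LSO-4, where 1.32% to 1.7% were lower. It was 1 without HSO-1, HSO-4 or LSO-5, where 0.886%, 1.81% and 3.72% were lower, and 2 without LSO-2, where 4.54% were. NCOR1 was at most 17.8 FPKM in HSO and at least 21.2 in LSO, so the groups did not overlap, as for 1.3% of genes tested in this direction. In the interaction with follicle size 3 of 31 had an unadjusted p under 0.05, against 7.89% of all genes. The ligands JAG2 and DLL3 had unadjusted interaction p of 0.0317 and 0.00719 (adjusted 0.563 and 0.339), as did KAT2B with 0.00407 (adjusted 0.282). JAG2 had 0.109 to 0.937 FPKM in HLO and 0 to 0.136 in LLO, against 0.0602 to 0.50 in HMO and 0.155 to 2.65 in LMO. DLL3 was listed at 0 in 5 of 5 LMO samples and in 1 of 5 HMO samples, with up to 2.21 FPKM in HMO.

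Some members differed by the number that the labels give each sample within its group. With group as a covariate, RBPJ (adjusted p = 0.000511) and ADAM10 (adjusted p = 0.00502) passed the adjusted threshold, which is 2 of 8 members against 50.5% of the 9692 genes. What the numbers stand for is not given in the labels. RBPJ was 10.9 to 12.1 FPKM in all 6 samples numbered 3 and 31.9 to 69.4 FPKM in all 6 numbered 5. Samples numbered 2 lay at 7.09 to 22.4 FPKM and those numbered 1 at 10.8 to 48.7. Among those numbered 4, the HLO, HMO and HSO samples had 8.02, 14.6 and 16.1 FPKM and the LLO, LMO and LSO samples 23.6, 31.7 and 41.0 FPKM. In RBPJ the samples numbered 3 thus lay within a narrow band across both populations and all sizes, and those numbered 5 lay above all of them. How many of all genes separate numbers 3 and 5, as RBPJ and ADAM10 did, was not counted.

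ADAM10 was 0.320 to 0.769 FPKM in the samples numbered 3 and 1.17 to 2.29 FPKM in those numbered 5. The sum of FPKM over all genes did not rise in this way, with medians of 433326 in number 3 and 422498 in number 5. The median-of-ratios factor, a median over genes above 0 in every sample, did, with medians of 0.780 and 1.31. Dividing by these factors left RBPJ called (median 15.3 FPKM in number 3 and 29.99 in number 5), but not ADAM10 (0.670 and 1.04 FPKM, adjusted p = 0.26). JAG1, HES1, NUMB and PSEN2 passed the adjusted threshold for the number after this scaling and after quantile normalization, but not before. Of all genes tested, 4403 of 9573 passed it with the factors and 4375 of 9692 with quantile normalization. With the factors JAG1 had medians of 28.8 FPKM in number 3 and 13.8 in number 5, and HES1 had 71.7 and 34.0.

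**Figure D4:**
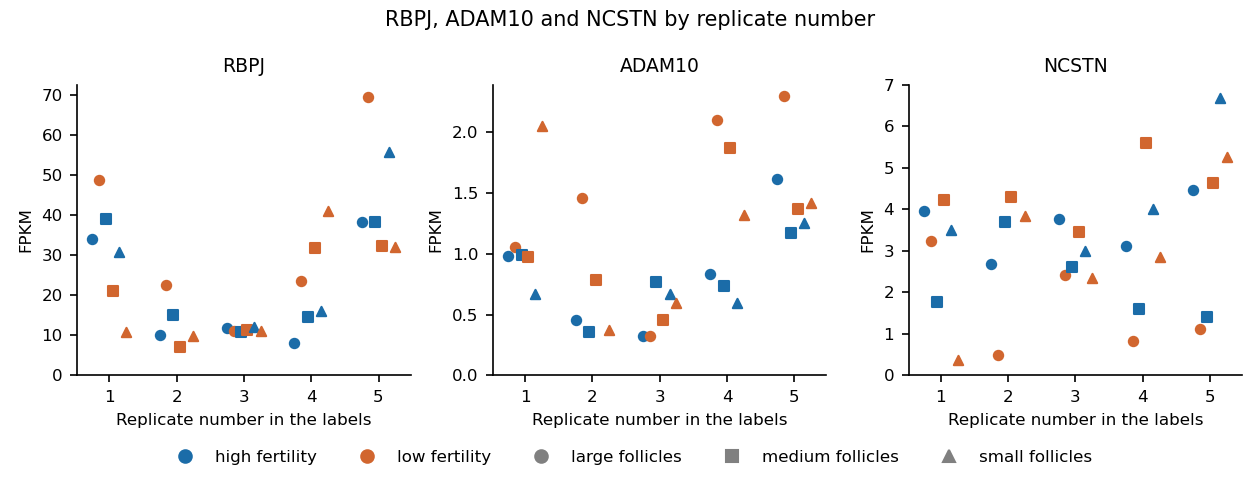
FPKM (vertical axis) of RBPJ, ADAM10 and NCSTN by the replicate number of the labels (horizontal axis), with 1 point per sample, coloured by population and shaped by follicle size. RBPJ held between 10.9 and 12.1 FPKM in the 6 samples numbered 3 and between 31.9 and 69.4 in the 6 numbered 5. NCSTN shows no such split (adjusted p = 0.859).

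Across the 29 samples the ligand and the target rose and fell together. The 8 members above 0.5 FPKM in at least 4 samples formed 28 pairs, and JAG1 and HES1 had the highest correlation of them, with Pearson's r = 0.90 and Spearman's rho = 0.88. Both permutation p were 1e-05, the smallest that 100000 permutations can give, and 0.00028 after adjustment over the 28 pairs. Without LMO-2 and LLO-5, the 2 samples farthest from the median of JAG1, r was 0.88, and with median-of-ratios factors rho was 0.95. Spearman's rho was 0.82 in the 14 high fertility and 0.94 in the 15 low fertility samples. Within the samples of number 1, 3, 4 and 5, with n = 6 each, rho was 0.77, 0.49, 0.60 and 0.77, with exact permutation p from 0.103 to 0.356. The samples numbered 2 (n = 5) were left out of this and the other correlations within numbers. Among them both genes rose in the same order, from LLO-2 over HLO-2, LSO-2 and HMO-2 to LMO-2. In those numbered 4 r went from 0.76 to -0.58 without HMO-4 and LSO-4. HES1 exceeded JAG1 in 27 of 29 samples, by a median of 2.49-fold, and the exceptions were LLO-2 and LLO-5.

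To set this in scale, the Spearman correlation with HES1 was computed for 8233 genes with a symbol of their own, and its median size was 0.29. The genes most like HES1 were WRNIP1 (0.89), FAM189A2 (0.89) and SREBF2 (0.88), and JAG1 tied with SREBF2 for the third place. For JAG1 they were MDH2 (0.94), RCC2 (0.94) and DLX4 (0.93), and HES1 came 26th. For RBPJ they were CDKAL1 (0.98), PPARGC1A (0.97) and CHN2 (0.96), with a median size over all genes of 0.48. For NCSTN they were TBX15 (0.91), RBMS2 (0.88) and MRAP2 (0.88), for ADAM10 CEP152 (0.91) and PXK (0.91), and for NUMB DHRS3 (0.77), SOBP (0.77) and TRPM3 (0.75). All samples share the replicate numbers and the scaling by mapped fragments, so these are descriptions of likeness over 29 samples.

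RBPJ ran opposite to both. Its rho was -0.69 with HES1 (r = -0.68, permutation p = 4e-05 and 2e-05, adjusted 0.00056 and 0.00028) and -0.62 with JAG1 (r = -0.67, permutation p = 0.00054 and 9e-05, adjusted 0.00302 and 0.00084). Without the 2 samples farthest from the median the r was -0.55 and -0.56, and with median-of-ratios factors rho was -0.91 and -0.94. Of all genes tested, 36.1% had a rho with RBPJ over 0.6 in size. The permutations shuffled all 29 samples regardless of number and group. The relation of RBPJ to HES1 and JAG1 was not the same within numbers. For RBPJ and HES1 rho was -1 in the samples numbered 1 and -0.83 in those numbered 5 (exact permutation p = 0.00278 and 0.0583), but 0.31 in those numbered 3 and -0.03 in those numbered 4 (exact permutation p = 0.564 and 1). For RBPJ and JAG1 it was -0.77, 0.54, -0.20 and -0.94 in numbers 1, 3, 4 and 5, with exact permutation p of 0.103, 0.297, 0.714 and 0.0167. Among the samples numbered 2, LLO-2 was highest in RBPJ and lowest in HES1 and JAG1, and LMO-2 the reverse.

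**Figure D5:**
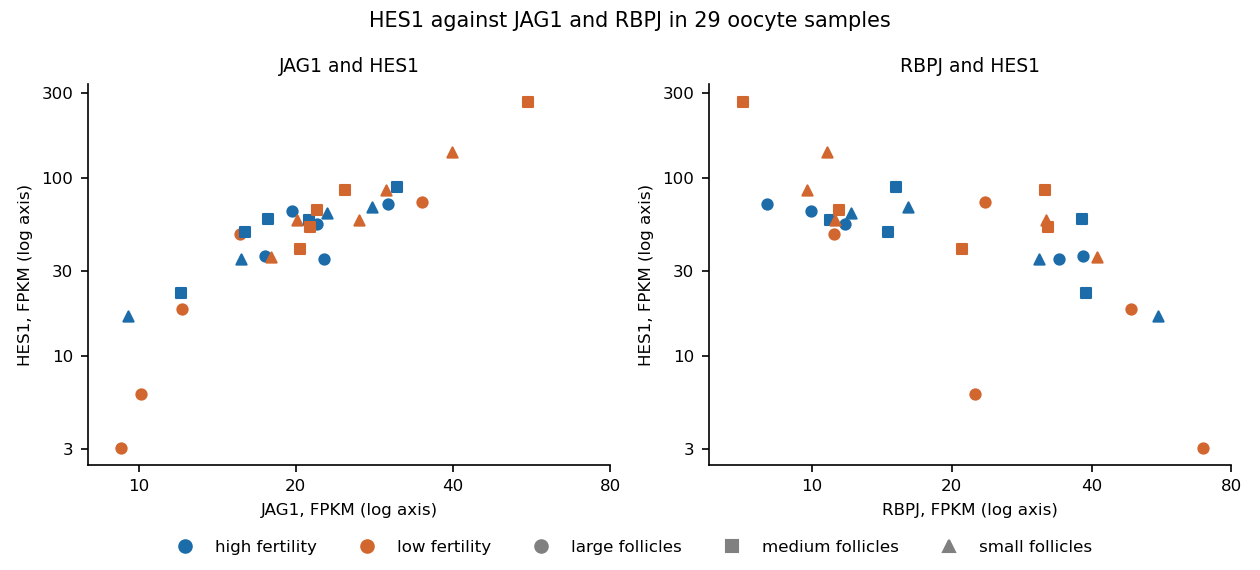
HES1 against JAG1 (left) and against RBPJ (right) in FPKM on log axes, with 1 point per sample, coloured by population and shaped by follicle size. HES1 rose with JAG1 (rho 0.88, n = 29) from LLO-5 at 9.24 and 3.07 FPKM to LMO-2 at 55.7 and 267 FPKM. It fell with RBPJ (rho -0.69, n = 29).

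Among the processing genes, PSEN2 and NCSTN, both subunits of gamma-secretase, had a rho of 0.59 (r = 0.57, permutation p = 0.0012 and 0.00155, adjusted 0.0048 and 0.00723), and r was 0.70 without LMO-2 and LSO-2. With median-of-ratios factors rho was 0.75. Without this scaling it was 0.36 in the high fertility samples (permutation p = 0.204) and 0.68 in the low fertility samples (permutation p = 0.00631), and the difference between these was not tested. Within numbers 1, 3, 4 and 5 it was 0.89, 0.31, 0.77 and 0.77, with exact permutation p of 0.0333, 0.564, 0.103 and 0.103. Among the samples numbered 2 both genes rose in the same order, from LLO-2 over HLO-2, HMO-2 and LSO-2 to LMO-2. ADAM10 and RBPJ had a rho of 0.59 (r = 0.62, permutation p = 0.00104 and 0.00032, adjusted 0.0048 and 0.00179, and r = 0.58 without LLO-5 and LLO-4), which was 0.27 with median-of-ratios factors (permutation p = 0.161). Without these factors rho was 0.65 in the high and 0.54 in the low fertility samples (permutation p = 0.0142 and 0.0412). Within numbers 1, 3, 4 and 5 rho was 0.09, -0.26, 0.54 and 0.31 and r was -0.73, -0.14, 0.65 and 0.60, with exact permutation p of rho from 0.297 to 0.919 in 6 samples each. Among the samples numbered 2, LLO-2 was highest in both, while LMO-2 was lowest in RBPJ but not in ADAM10. Of all genes tested, 24.4% had a rho over 0.6 in size with ADAM10 and 36.1% with RBPJ.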

How the data were processed

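RNA of 29 oocyte samples was sequenced. The authors kept uniquely aligned reads, discarded duplicates with picard, and ran Cufflinks 2.2.1 on the Ensembl gene models. They deposited FPKM for each gene and sample. The aligner and genome build are not given in the sources used here. The table holds no counts, and its low values do not fall on steps of whole reads, so the depth behind each FPKM is not known from it and no counting interval is given. The supplementary count and mapping tables of the study were not used here. FPKM scale each sample by its own total, so a few abundant genes can shift all others. Columns were assigned by name, and 1 column whose name fits no sample was not used. No 2 samples held identical values.

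Values were taken as log2(FPKM + 1). Genes above 0.5 FPKM in 4 or more samples of a fit were tested with limma 3.58.1 (R 4.3.3, moderated test with trend), with Benjamini-Hochberg adjustment over all genes tested at 0.05. The fits were high against low fertility per size, fertility over all stages, stage, their interaction, and replicate number. Exact tests and 100000 permutations were two-sided (Python 3.11.15, numpy 2.4.6, scipy 1.17.1). The fits were tested on simulated data. The members and gene lists were chosen with earlier results of these data known.

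All 9 members are named. Other Notch pathway genes are named if they are ligands or receptors, above 0.5 FPKM in every sample, or under an unadjusted p of 0.05 in a fertility comparison. For each member with a mean above 1 FPKM, the 3 genes of highest Spearman rho are named. A few genes that these rules select are not reported here. Close relatives and targets named beside a member (APH1A, PSENEN, NUMBL, the MAML genes and the remaining HES genes), NRARP and the markers were named after their values were seen. MAML2 and MAML3 have 2 entries each, and the one with the higher level is given.

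The alternatives were pseudocounts of 0.1 and 0.5, a filter of 1 FPKM or none, median-of-ratios factors, quantile normalization, sample weights from limma, a block for the replicate number, 1 fit over all samples, exact permutation tests, and each sample left out in turn. Correlations under another scaling or without each sample were added after seeing the data.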

Additional observations from a re-analysis of the deposited data

Results flagged for a closer look

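Of 54 combinations of a member and a group, 5 held a sample that stood apart from the others of its group by Dixon's criterion. For independent, normally distributed values 2.7 would be so by chance. The members share their samples, and such cases were not counted over all genes. LMO-2 was far above the other LMO samples in JAG1 (55.7 FPKM) and in PSEN2 (2.23 FPKM) and far below them in NUMB (9.59 FPKM). HMO-2 was far above the other HMO samples in PSEN2 (0.664 FPKM). HSO-5 was far above the other HSO samples in ADAM10 (1.25 FPKM). LMO-2 also had the lowest sum of FPKM over all genes (222697).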

How the results depend on the processing

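The counts below are of members with an unadjusted p under 0.05, unless an adjusted p is named. With sample weights they were 4 in large and 2 in medium follicles, 3 over all stages and 6 for the replicate number. Of all genes tested this fit called 16.5% in large and 39.8% in medium follicles, 33.8% over all stages and 81.3% for the number. The adjusted threshold was passed by 1 member in medium follicles, 2 over all stages, 1 in the interaction and 6 for the number. It was passed by 1011, 691, 231 and 7704 of all genes in that order. The fit with sample weights also moved the median difference of all genes from -0.07 to -0.32 in medium follicles and from -0.04 to -0.16 over all stages. It turned the direction of RBPJ in medium follicles (-0.64) and of NUMB (-0.065), JAG1 (0.0321) and NCSTN (-0.23) over all stages. Scaling by median-of-ratios gave counts of 1 for stage, 1 for the interaction and 5 for the number (5 adjusted), with quantile normalization 1, 1 and 6 (5 adjusted), and 2 over all stages. Of all genes tested 1.6%, 9.67% and 55.4% were called with the factors, and 2.02%, 10.1%, 55.1% and 10.4% with quantile normalization, in that order. Over all stages RBPJ turned to 0.0376 with the factors, HES1 to -0.0155 with quantile normalization, and PSEN2 to 0.067 with a pseudocount of 0.1. The count was 2 in medium follicles without a filter and 2 in large follicles in 1 fit over all samples, where 8.13% and 10.6% of all genes tested were called. The cause of these changes was not tested.

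Leaving out each sample in turn, the counts ran from 0 to 3 in large follicles, 0 to 2 over all stages, 0 to 1 for stage, 1 to 3 for the interaction and 2 to 5 for the number. In large follicles the count was 0 without LLO-2, 2 without LLO-3 and 3 without LLO-4. Of all genes tested there, 2.31%, 10.6% and 5.88% had such a p, in that order. Over all stages it was 2 without HLO-5, LLO-3 or LMO-3 and 1 without LMO-1, LSO-2 or LSO-3, and for stage it was 1 without HMO-1, LLO-3 or LLO-4. In the interaction it was 1 without HLO-2, HLO-4, LLO-2 or LLO-5 and 3 without LLO-4, LMO-5 or LSO-2. For the number it was 5 without LLO-2, 4 without HLO-2 or LLO-1 and 2 without HLO-3, HLO-5, LLO-5, LMO-1, LMO-3 or LSO-3. The difference of RBPJ in medium follicles ran from -0.11 to 0.41, and over all stages those of HES1, RBPJ and PSEN2 ran from -0.16 to 0.23, -0.19 to 0.0674 and -0.0744 to 0.0443. For the number, NOTCH2 passed the adjusted threshold without HMO-3 or LSO-2 (adjusted p = 0.0493 and 0.0483) and PSEN2 without LLO-2 (adjusted p = 0.0161). The exact permutation test gave no adjusted count, since it was run for the members alone.

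Of 14 pairs of high and low fertility samples with the same size and number, 10 deviated together with a correlation over 0.1 (range -0.48 to 0.71), and 7 correlated best with their own number, so the numbers were not taken to pair the samples. With the replicate block the counts were 2 in large and 2 in medium follicles, 2 over all stages, 0 in small follicles and 3 in the interaction. Over all genes tested the block gave 8.21%, 16.4%, 15.1%, 9.41% and 14.5% in that order. Without it the shares were 4.14%, 8.67%, 9.99%, 4.41% and 7.89%. With the block 0 members passed the adjusted threshold, while 127 genes in medium follicles and 70 in the interaction did. Within numbers NCSTN was higher in HLO (5 of 5) and HSO (4 of 4) and lower in HMO (5 of 5). JAG1 and PSEN2 were lower in HMO and ADAM10 and POFUT1 in HLO (5 of 5 each). Other members had both signs at each size. These signs add no test and were not counted over all genes. Of the other pathway genes 8 were lower over all stages with the block, against 6 without it, and 1 was higher and 4 lower in medium follicles, against 1 and 1.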
